A study of Mus musculus with 14 samples.

Results

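The 9 genes described here encode histone lysine demethylases and were chosen by symbol: Kdm1a, Kdm1b, Kdm4a, Kdm4b, Kdm4c, Kdm4d, Kdm5a, Kdm5b and Kdm6b, out of 56923 genes in the count table. RNA-seq was performed on mouse 2-cell embryos of ICR mice in 14 libraries of 7 conditions, with 2 libraries per condition and 5 pooled embryos per library. Early 2-cell embryos were collected at 30 h and late 2-cell embryos at 54 h post-hCG. In the G&N group, embryos were kept from 24 h post-hCG in mKSOM medium with 10 mM lactate, 5 μM Gne140, which inhibits lactate dehydrogenase, and 50 μM NMN, a precursor of NAD. The G&N-L group had the same inhibitor and NMN but no lactate, and another late 2-cell group, G&N-L + Lac-CoA, came from zygotes injected with 1 mM lactyl-CoA and kept in the lactate-free medium. The other late 2-cell embryos came from zygotes injected at 14 h post-hCG with H3 mRNAs, either carrying a lysine 18 to arginine change (H3K18R) or wild-type (WT).

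All 5 groups cultured with Gne140 share the inhibitor and NMN, and comparisons within a stage concern lactate or Lac-CoA on that background. No injection is mentioned for the G&N and G&N-L embryos, so Lac-CoA and the injection itself cannot be told apart. The deposited labels leave some doubt on the groups. The treatment label of the early G&N libraries names Gne140 alone, that of the early G&N-L libraries does not mention the lack of lactate, that of the Lac-CoA libraries says CoA, and the mutant columns of the count table are named K18A. Groups follow the sample titles here. H3c1, a gene of the H3 family, stood at 2091 and 3655 CPM (counts scaled to the normalized library size) in the H3K18R libraries and at no more than 1.72 CPM in the other 12 libraries, WT included, so H3c1 separates the H3K18R libraries but gives no sign of injected mRNA in the WT libraries.

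Histone lysine demethylases remove methyl groups from histone tails. Kdm1a and Kdm1b are flavin-dependent amine oxidases that act on mono- and dimethylated H3K4, whereas the Kdm4, Kdm5 and Kdm6 enzymes hold a Jumonji C domain, use iron and 2-oxoglutarate, and can also remove trimethylation. Kdm5a and Kdm5b act on H3K4 and are known for clearing the broad H3K4 trimethylation that the oocyte passes to the embryo, at about the time the embryonic genome becomes active. The Kdm4 enzymes act on H3K9, most of them also on H3K36, and Kdm6b acts on H3K27.

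The promoters of Kdm5b and Kdm4a, the members with the smallest p for lactate in late 2-cell embryos, and of Kdm6b, whose libraries were higher without lactate, are printed to show the sequence before their start sites. Each is the 250 bases upstream of the gene start on mm39, 5′ to 3′ on the gene's strand, and none holds an exon of another gene. Kdm5b lies on the plus strand and its window is chr1:134487625-134487874. Kdm4a lies on the minus strand with the window chr4:118037252-118037501, and Kdm6b on the minus strand with the window chr11:69304502-69304751. Capitals mark matches on either strand to 7 motifs: CCAAT (the CCAAT box), GGGCGG (the GC box), CACGTG (the E-box), GGATTA (a core of paired-like homeodomain factors), AAGGTCA (an orphan nuclear receptor site), CCGGAAG (an Ets site) and TATAAA (the TATA box).
Kdm5b: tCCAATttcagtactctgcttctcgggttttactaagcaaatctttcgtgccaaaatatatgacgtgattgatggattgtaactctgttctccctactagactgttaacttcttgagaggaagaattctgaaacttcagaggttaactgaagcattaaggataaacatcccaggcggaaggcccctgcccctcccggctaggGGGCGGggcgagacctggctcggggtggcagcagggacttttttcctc
Kdm4a: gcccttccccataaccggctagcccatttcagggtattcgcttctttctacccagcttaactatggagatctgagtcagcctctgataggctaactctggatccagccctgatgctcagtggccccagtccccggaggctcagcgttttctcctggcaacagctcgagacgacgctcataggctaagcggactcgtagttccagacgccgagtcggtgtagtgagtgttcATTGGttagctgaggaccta
Kdm6b: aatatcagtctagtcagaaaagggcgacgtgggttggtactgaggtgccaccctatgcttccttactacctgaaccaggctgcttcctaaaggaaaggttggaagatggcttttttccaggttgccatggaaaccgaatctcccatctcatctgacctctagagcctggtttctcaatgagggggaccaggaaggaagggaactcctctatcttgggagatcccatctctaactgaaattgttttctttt
CCAAT occurs once in the Kdm5b window, its first base at -249 from the start, and once in the Kdm4a window at -20. GGGCGG occurs once, at -48, in the Kdm5b window. Of 21580 promoters of the same length, 36% hold CCAAT and 31.6% hold GGGCGG. None of the 7 motifs matched in the Kdm6b window, which says only that these letters are not there. The GC content was 48.8% for Kdm5b, 55.2% for Kdm4a and 47.6% for Kdm6b, against a median of 51.6% over all promoters.

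The libraries held 20350427 to 61275465 counts, and a count of 0 allows up to 3 counts, or 0.0490 to 0.147 CPM, which covers counting error only. Across genes, replicates correlated at 0.927 to 0.966 and libraries of different stages at 0.703 to 0.880. The summed level of 10 late 2-cell markers, such as Zscan4c and Dppa2, was 569 to 961 CPM in the early and 2360 to 5290 CPM in the late libraries. Not all of the 10 were higher late in every group. The mean of Tcstv1 was 510 CPM in early G&N, 365 CPM in late G&N and 156 CPM in WT. Without lactate the mean of Tcstv1 was 369 CPM early and 577 CPM late, and that of Dppa2 113 and 122 CPM. The summed level of 10 maternal markers, mostly from Btg4, Oosp1 and Bmp15, was 20016 to 26770 CPM in the early libraries, 9850 to 19242 CPM in the late libraries with Gne140 and 3626 to 8208 CPM in the late H3-injected libraries. Zp3, another of the 10, was not lower late, at 48.1 CPM on average in early G&N, 58.3 CPM in late G&N and 136 CPM in WT. Without lactate, the means of Oosp1, Zp1 and Zp2 were also higher late. They were 3192, 13.2 and 98.7 CPM in early G&N-L and 3883, 18.9 and 106 CPM in late G&N-L. The means of Gdf9, Bmp15, Mos, Btg4, Npm2 and Nlrp5 were lower late there. The sum of 10 cumulus cell markers was 8.40 to 37.7 CPM. Inhba was at 0 in every library, but other cumulus markers were counted and differed between groups. The mean of Cyp19a1 was 18.1 CPM in early G&N and in early G&N-L and 7.16 CPM in late G&N. That of Amhr2 was 14.6 CPM in WT and that of Tnfaip6 14.3 CPM in H3K18R, and both were at 0 in early G&N. Libraries are pools of whole embryos, so fewer cells with a transcript and less transcript per cell cannot be told apart. Nothing in the sources ties replicates to separate matings, so p-values measure the spread between these libraries, which may be technical.

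Kdm5b (ENSMUSG00000042207.18), on chromosome 1 of mm39 from 134487875 to 134563030, had the largest change between stages with lactate of the 4 H3K4 demethylases among the 9 genes. Its level was 8.71 and 10.1 CPM in the early G&N libraries and 189 and 214 CPM in the late G&N libraries. In G&N-L it was 21.1 and 11.1 CPM in the early and 65.3 and 53.6 CPM in the late libraries. The stages did not overlap in either medium, but the late G&N-L libraries stood far below the late G&N libraries, while the early G&N-L libraries stood above the early G&N libraries. With Lac-CoA, the late level was 135 and 125 CPM, between those of G&N-L and G&N. The late H3-injected groups had the highest mean levels, with 368 and 358 CPM in WT and 320 and 172 CPM in H3K18R. The second H3K18R library stood far below the other 3 H3-injected libraries and also below both late G&N libraries. H3-injected and inhibitor-treated embryos belong to separate experiments, so culture, injection and treatment cannot be told apart between them.

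Kdm5a (chromosome 6 from 120341068 to 120421535), the paralogue of Kdm5b, had the same order as Kdm5b of the mean levels of the 5 groups with Gne140. It stood at 5.85 and 6.71 CPM in the early G&N and 11.9 and 13.8 CPM in the early G&N-L libraries. In the late libraries it was at 74.1 and 65.4 CPM in G&N, 29.96 and 36.9 CPM in G&N-L and 42.9 and 47.1 CPM with Lac-CoA. These 5 groups did not overlap each other. The H3-injected embryos had 76.5 and 76.3 CPM in WT and 59.2 and 66.2 CPM in H3K18R. An overlap with Ccdc77 on the opposite strand covers 634 exonic bases of Kdm5a, and since the strand setting of the counting is not given in the sources used here, reads of the overlap may be shared.

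Kdm1a (chromosome 4 from 136277846 to 136330106), a subunit of the CoREST complex, and Kdm1b, which acts on H3K4 in growing oocytes, were highest in the early libraries. Kdm1a was at 49.3 and 63.1 CPM in early G&N and 43.1 and 56.0 CPM in early G&N-L. In the late libraries it was at 27.4 and 27.6 CPM in G&N, 15.2 and 15.3 CPM in G&N-L and 17.1 and 20.1 CPM with Lac-CoA. The late G&N-L libraries were the lowest of these and did not overlap those of G&N or Lac-CoA. The H3-injected embryos had 19.3 and 21.6 CPM in WT and 29.2 and 12.6 CPM in H3K18R, whose 2 libraries enclosed WT. Kdm1b was at 183 and 162 CPM in early G&N and 136 and 125 CPM in early G&N-L. In late embryos it was at 106 and 87.2 CPM in G&N, 106 and 98.0 CPM in G&N-L and 93.0 and 83.0 CPM with Lac-CoA. WT had 41.4 and 46.4 CPM of Kdm1b and H3K18R 58.4 and 76.4 CPM. Kdm1b thus stood between 83.0 and 106 CPM in the 3 late groups with Gne140, and below these in all 4 H3-injected libraries. Exons of Kdm1a share 631 bases with Luzp1, and those of Kdm1b share 1451 with Dek and 601 with Tpmt, all on the opposite strand, so these counts are uncertain to that extent.

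Kdm4a (chromosome 4 from 117994154 to 118037251), which acts on H3K9 and H3K36, was lowest in late embryos without lactate. It was at 54.6 and 46.7 CPM in early G&N and 33.3 and 37.9 CPM in early G&N-L. In late embryos it was at 17.7 and 26.1 CPM in G&N but 4.005 and 3.39 CPM in G&N-L, which are 647 and 1137 against 154 and 130 counts. With Lac-CoA it was at 24.8 and 12.7 CPM, in WT at 28.1 and 28.2 CPM and in H3K18R at 29.1 and 16.8 CPM. The late G&N-L libraries lay below all other 12 libraries.

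Kdm4c (chromosome 4 from 74160734 to 74324757), which acts on the same residues, had the opposite pattern by stage. It had 23 and 2 counts in the early G&N and 0 in both early G&N-L libraries. In late embryos it stood at 28.7 and 41.1 CPM in G&N, 27.2 and 24.2 CPM in G&N-L and 30.6 and 50.7 CPM with Lac-CoA. WT had 87.4 and 116 CPM and H3K18R 104 and 48.7 CPM. Every late library was above every early one.

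Kdm4b (chromosome 17 from 56632913 to 56714338) was the lowest of the H3K9 demethylases in late embryos by level per kilobase of exon, in all groups but WT and Lac-CoA. It had 29 and 0 counts in early G&N and 0 in both early G&N-L libraries. Late levels were 1.20 and 1.61 CPM in G&N, 0.182 and 1.36 CPM in G&N-L, 3.52 and 2.398 CPM with Lac-CoA, 0.652 and 5.95 CPM in WT and 0.192 and 0.219 CPM in H3K18R. The 2 libraries lay far apart in WT, late G&N-L and early G&N, and closer together in the other late groups.

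Kdm4d (chromosome 9 from 14361154 to 14411778), which acts on H3K9 only, stood out in the late G&N-L libraries, with 4.86 and 6.24 CPM (187 and 239 counts). It had 36 and 28 counts in early G&N, 0 in both early G&N-L libraries, 2 and 111 in late G&N, 1 and 83 with Lac-CoA, 37 and 1 in WT and 14 and 0 in H3K18R. No library outside late G&N-L passed 2.55 CPM. Kdm4d shares 1187 exonic bases with the pseudogene Kdm4dl on the same strand, and Kdm4dl held 221 and 540 counts in late G&N-L and 531 and 367 counts in late G&N. How reads of the copies were assigned is not stated, so the Kdm4d values are uncertain.

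Kdm6b (chromosome 11 from 69289334 to 69304501), the H3K27 demethylase of the set, was present at both stages. It was at 101 and 111 CPM in early G&N and 163 and 127 CPM in early G&N-L. Late levels were 105 and 155 CPM in G&N, 169 and 213 CPM in G&N-L and 168 and 181 CPM with Lac-CoA. WT had 52.4 and 50.1 CPM and H3K18R 62.7 and 127 CPM. The groups without lactate were above G&N of the same stage, and WT was the lowest of all.

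**Figure D1:**
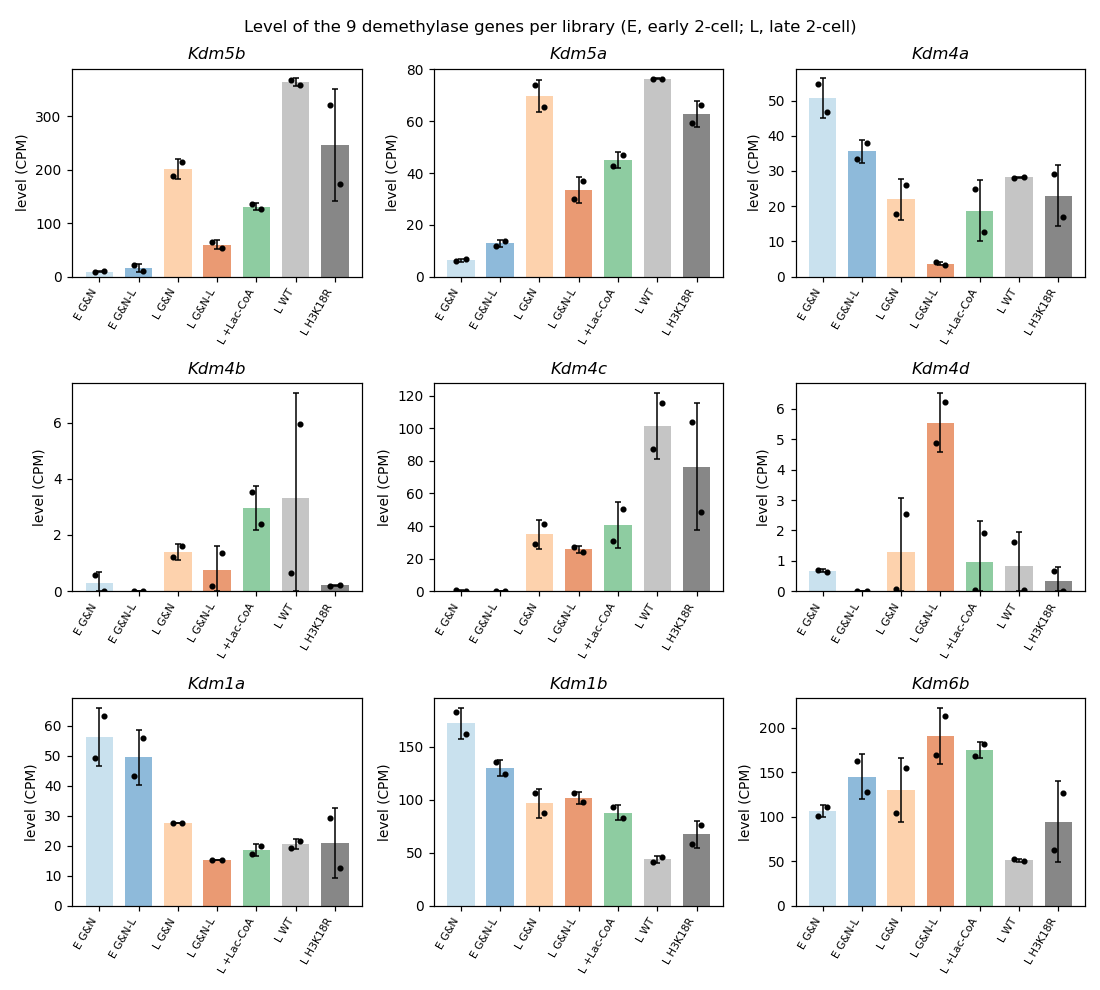
Level of each of the 9 genes in CPM (linear axis from 0) by condition, where E is early and L late 2-cell. Points are the 2 libraries, bars their mean and error bars the SD over n = 2 (lower ends stop at 0), and a reader should see Kdm5b at 189 and 214 CPM in late G&N against 65.3 and 53.6 CPM in late G&N-L, and Kdm4a at 4.005 and 3.39 CPM in late G&N-L.

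Per kilobase of exon, the order of the genes changed with stage. In early G&N embryos Kdm1b led with 19.1 CPM per kilobase, before Kdm6b with 15.3, Kdm1a with 10.04 and Kdm4a with 8.43, while Kdm5b was at 0.565 and Kdm5a at 0.411. In late G&N embryos Kdm6b led with 18.7 CPM per kilobase, and Kdm5b came second with 12.1. In late G&N-L embryos Kdm5b was at 3.58 CPM per kilobase and Kdm4a, at 0.616, was second to last.

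Shares within a family, which need no scaling between libraries, were computed from counts per kilobase of exon in each library. Kdm5b made up 19.0% ± 1.32 (SD, n = 2) of the summed level of the 4 Kdm5 genes in early G&N and 68.9% ± 4.17 in late G&N. In late G&N-L its share was 42.8% ± 6.17, and with Lac-CoA 65.4% ± 3.58. Kdm5c, an X-linked paralogue that acts on the same residue, held 67.0% ± 2.44 in early G&N, 4.95% ± 0.860 in late G&N, 27.6% ± 0.0117 in late G&N-L and 10.1% ± 2.02 with Lac-CoA. The shares of Kdm5b and Kdm5c in late G&N-L thus lay between those of early and late G&N. The mean level of Kdm5c itself was 29.8 CPM in early G&N, 12.9 CPM in late G&N and 34.3 CPM in late G&N-L. The lower Kdm5b share in late G&N-L thus goes with a lower Kdm5b and a higher Kdm5c level. Among the 4 Kdm4 genes, Kdm4a held 98.1% ± 0.566 in early G&N, 57.1% ± 1.75 in late G&N and 17.98% ± 2.26 in late G&N-L. Kdm4c held 37.7% ± 1.95 in late G&N and 51.6% ± 4.77 in late G&N-L, where Kdm4d reached 28.3% ± 4.71. With Lac-CoA the 2 libraries differed, so Kdm4a held 48.5% ± 20.2. The smallest two-sided p of an exact permutation test with 2 libraries per group is 0.333, so no test of these shares was made.

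**Figure D2:**
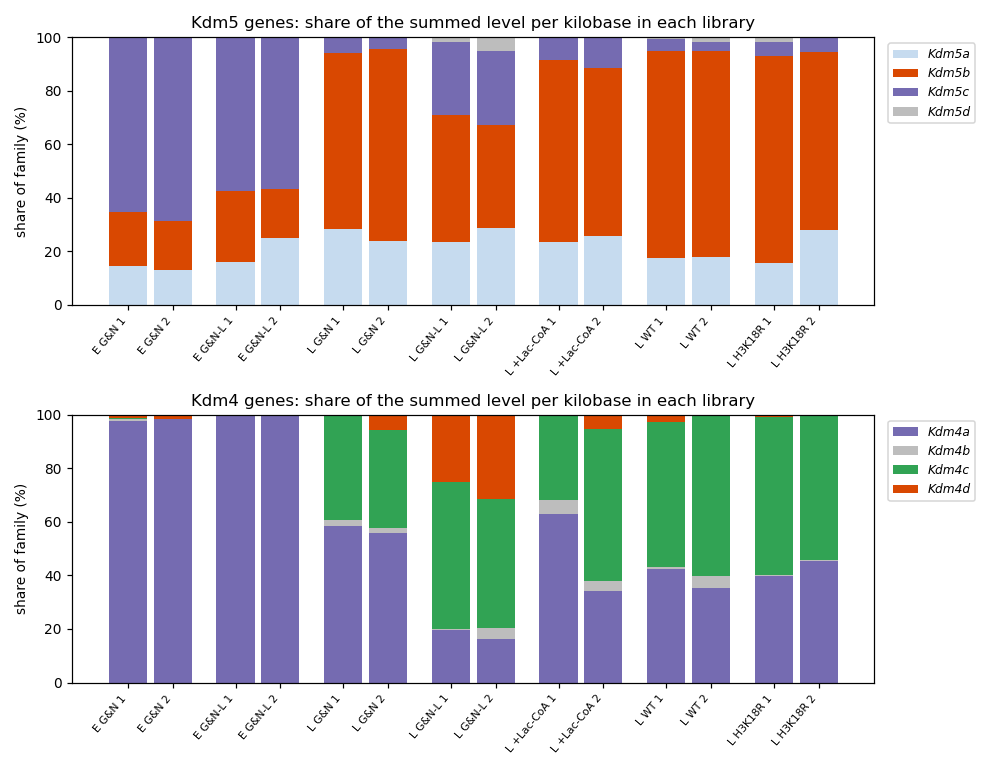
Share (%) of each gene in the summed level per kilobase of the Kdm5 genes (top) and Kdm4 genes (bottom), one bar per library, with E for early and L for late 2-cell. A reader should see the Kdm5b share at 68.9% on average in late G&N and 42.8% in late G&N-L, and the Kdm4a share at 57.1% and 17.98%.

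The comparison of late G&N-L with late G&N asks whether the demethylase genes depend on lactate during major zygotic genome activation. The mean level of Kdm5b was 201 ± 18.2 CPM with lactate and 59.4 ± 8.23 CPM without it (SD, n = 2 each), a decrease to 29.5%. The log2 fold change of -1.71 (SE 0.227) ranked 18 of 19481 genes by p, but had an adjusted p of 0.311 by edgeR's quasi-likelihood test with Benjamini-Hochberg adjustment. Kdm4a was at 16.9% of the G&N level, with a log2 fold change of -2.51 (SE 0.467), rank 129 by p. Kdm5a was at 47.9% of it, with a log2 fold change of -1.02 (SE 0.271), rank 647. The adjusted p was 0.311 for Kdm4a and 0.332 for Kdm5a by edgeR's quasi-likelihood test. Kdm1a had -0.80, Kdm4b -0.82 and Kdm4c -0.39 on the same log2 scale, whereas Kdm1b had 0.12, Kdm6b 0.61 and Kdm4d 2.17, all with unadjusted p above 0.05.

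By edgeR with adjustment, 0 of the 9 genes were called, as were 0% of the 19481 genes tested, while 3 of the 9, all lower, had an unadjusted p under 0.05, against 7.65% of all genes lower at that level. DESeq2 called 2 of the 9, Kdm5b (adjusted p = 1.28e-07) and Kdm4a (adjusted p = 0.000953), and 4.99% of all genes with an adjusted p. Without the filter on low counts edgeR called the same 2 genes, with adjusted p = 0.00363 for Kdm5b and 0.0337 for Kdm4a, and with at least 10 counts in every library Kdm5b, with adjusted p = 0.0210. In 5 of the 9 genes both G&N-L libraries were below both G&N libraries (24.9% of all genes tested), and in 2 above (18.6%). The median log2 fold change of the 9 genes was -0.80, against -0.02 for all genes tested. The summed maternal markers were at 16859 to 19242 CPM in late G&N-L and 13079 to 15066 CPM in late G&N, and the late 2-cell markers at 3061 to 3588 and 3030 to 3290 CPM. These late 2-cell sums hide members with opposite values: the mean of Dppa4 was 75.1 CPM without and 276 CPM with lactate and that of Dppa2 122 and 192 CPM, but that of Tcstv1 577 and 365 CPM. By edgeR with adjustment 0 of the 10 late 2-cell markers were called, and 1 lower and 2 higher had an unadjusted p under 0.05. The part of these markers in the member values was not tested.

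The late 2-cell group injected with Lac-CoA and cultured without lactate was compared with late G&N-L and with late G&N. These comparisons share the G&N-L or the G&N libraries with the one above, so their values are not independent of it. Against G&N-L, Kdm5b was 2.19-fold higher, with a log2 fold change of 1.08 (SE 0.222), and Kdm4a 5.07-fold higher, with 2.30 (SE 0.562). Both had an adjusted p of 0.294 by edgeR's quasi-likelihood test. Kdm5a had 0.38, Kdm4c 0.61, Kdm4b 1.90 and Kdm1a 0.23, while Kdm1b had -0.26, Kdm6b -0.18 and Kdm4d -2.58, none with an unadjusted p under 0.05.

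By edgeR, 0 of the 9 genes and 0% of 19610 genes were called with Lac-CoA against G&N-L, and 2 of the 9 had an unadjusted p under 0.05, both higher (6.92% of all genes were higher at that level). DESeq2 called these 2, with adjusted p = 0.00261 for Kdm5b and 0.0113 for Kdm4a, and 6.28% of all genes. In 6 of the 9 genes both Lac-CoA libraries were above both G&N-L libraries (24.8% of all genes), and in 2, Kdm1b and Kdm4d, below (22%). Against G&N, the Lac-CoA level of Kdm5b was 64.8% and that of Kdm5a 64.5%, while Kdm4a was at 85.7%. The log2 fold change against G&N was -0.53 for Kdm5b (SE 0.214, adjusted p = 0.586 by edgeR), -0.54 for Kdm5a and -0.12 for Kdm4a. By edgeR 0 of the 9 genes and 0% of 19613 genes were called in that comparison, 1 of the 9 had an unadjusted p under 0.05 (8.51% of all genes), and DESeq2 called 0 of the 9 and 2.55% of all genes. The late 2-cell markers summed to 4660 to 5290 CPM with Lac-CoA, above both other groups, and the maternal markers to 9850 to 14216 CPM; their part in these values was not tested.

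In H3K18R against WT, the comparison of mutant with wild-type H3, Kdm5b was at 67.8% of the WT level, a log2 fold change of -0.56 (SE 0.365, adjusted p = 0.879 by edgeR). Kdm5a had -0.28 and Kdm4a -0.29, whereas Kdm6b had 0.89 and Kdm1b 0.62. Kdm4b was the member with the smallest p, and its fold change of -3.97 (adjusted p = 0.785 by edgeR) rested on the second WT library. By edgeR 0 of the 9 genes were called, against 0.00565% of 17704 genes, which is H3c1, and 0 of the 9 had an unadjusted p under 0.05 (6.44% of all genes). DESeq2 also called 0 of the 9, and 0.708% of all genes. Both H3K18R libraries were below both WT libraries for Kdm4b, Kdm5a and Kdm5b and above for Kdm1b and Kdm6b, which makes 5 of 9 genes, or 4 of 8 without Kdm4b, which passed the filter through WT alone, against 39% of all genes tested. The second H3K18R library set much of the difference: without it the log2 fold change of Kdm5b was -0.18, and without the first it was -1.08. The maternal markers summed to 4017 to 8208 CPM in H3K18R and 3626 to 3726 CPM in WT, and their part was not tested.

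**Figure D3:**
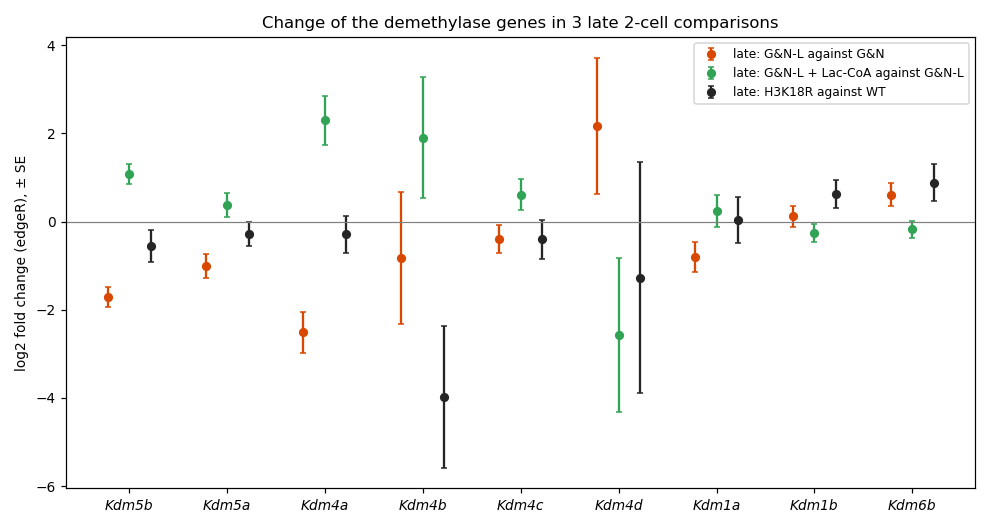
Log2 fold change (edgeR, points, with the SE as error bars) of the 9 genes in 3 comparisons of late 2-cell embryos. A reader should see Kdm5b at -1.71 and Kdm4a at -2.51 for G&N-L against G&N, whereas these were at 1.08 and 2.30 with Lac-CoA against G&N-L, 2 comparisons that share the G&N-L libraries.

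Early 2-cell embryos were compared in the same way. Of the 9 genes, 7 were tested there, since Kdm4b and Kdm4c failed the filter on low counts. Kdm5a had a log2 fold change of 1.15 (SE 0.434) and Kdm5b of 0.87 (SE 0.441) in early G&N-L against early G&N, both with an adjusted p of 0.9999 by edgeR. Kdm6b had 0.55, Kdm1b -0.28, Kdm4a -0.38 and Kdm1a -0.07 on the log2 scale. Kdm4d passed the filter through the early G&N libraries alone. Its mean was at least 5.85-fold lower in G&N-L on library totals without TMM, taking 3 counts per library for its 0 counts. By edgeR 0 of the 7 genes and 0% of 17343 genes were called, and DESeq2 called 0 of the members and 0.247% of all genes. Of the 6 genes other than Kdm4d, 1, Kdm5a, had an unadjusted p under 0.05 and was higher, against 1.82% of all genes higher at that level. Early G&N-L and G&N libraries did not overlap in 5 of these 6 genes, against 32.7% of all genes tested.

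The change from the early to the late 2-cell stage was then compared with and without lactate. With lactate, Kdm5b rose 21.5-fold and Kdm5a 11.1-fold, and Kdm4c rose from 0.248 to 34.9 CPM. Their log2 fold changes were 4.34 (SE 0.321), 3.39 (SE 0.372) and 7.09 (SE 1.05), with adjusted p of 0.00599, 0.00972 and 0.0169 by edgeR, where the value for Kdm4c depends on the prior count. These 3 of 9 genes were called, all higher, against 8.18% of 19443 genes called higher. Kdm4c, with 23 and 2 counts in early G&N, needed its late libraries to pass the filter, so its call is not to be set against that share. Without the first late G&N library, or without the second, 1 of the 9 genes, Kdm5b, was called. Kdm1a (-1.12), Kdm1b (-0.90) and Kdm4a (-1.28) had adjusted p of 0.0794, 0.0677 and 0.0666 by edgeR, and all 3 were called by DESeq2, which called 6 of the 9 genes and 31.9% of all genes. Kdm6b had a log2 fold change of 0.21, Kdm4d 0.87 and Kdm4b 2.32, none called. The median over the 9 genes was 0.87, against 0.08 over all genes. It was the value of Kdm4d itself, which ranged from -3.63 to 1.83 with a library left out. The 9 genes include Kdm4b and Kdm4c, which had few counts in early G&N, so the median does not show a rise of the set.

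Without lactate, Kdm4a fell to 10.4% and Kdm1a to 30.8% of their early level, while Kdm5b rose 3.69-fold. The log2 fold changes were -3.33 (SE 0.359, adjusted p = 0.0102), -1.76 (SE 0.290, adjusted p = 0.0254) and 1.84 (SE 0.365, adjusted p = 0.0390) by edgeR. Kdm4c and Kdm4d were at 0 in both early G&N-L libraries. Taking 3 counts for each 0, their late means were at least 294-fold and at least 63.3-fold higher on library totals without TMM. Their adjusted p was 0.00779 and 0.0306 by edgeR. Kdm4b failed the filter, and Kdm4c and Kdm4d passed it through the late libraries alone, so they had to differ and are not counted against other genes. Of the other 6 genes tested, 3 were called, 2 lower and 1 higher, against 11.8% of 18604 genes. Without the first late G&N-L library 0 of the genes were called, without the second 1 (Kdm4c) and without the second early library 3, Kdm4c and Kdm4d included among the genes counted, and the Kdm5b log2 fold change ranged from 1.47 to 2.30. Kdm5a had 1.31 (adjusted p = 0.0603 by edgeR, 0.00210 by DESeq2), Kdm1b -0.41 and Kdm6b 0.34. The median over these 6 genes was -0.034, against 0.15 over all genes. It leaves out Kdm4b, Kdm4c and Kdm4d, so it is not to be set against the median with lactate, which includes them.

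**Figure D4:**
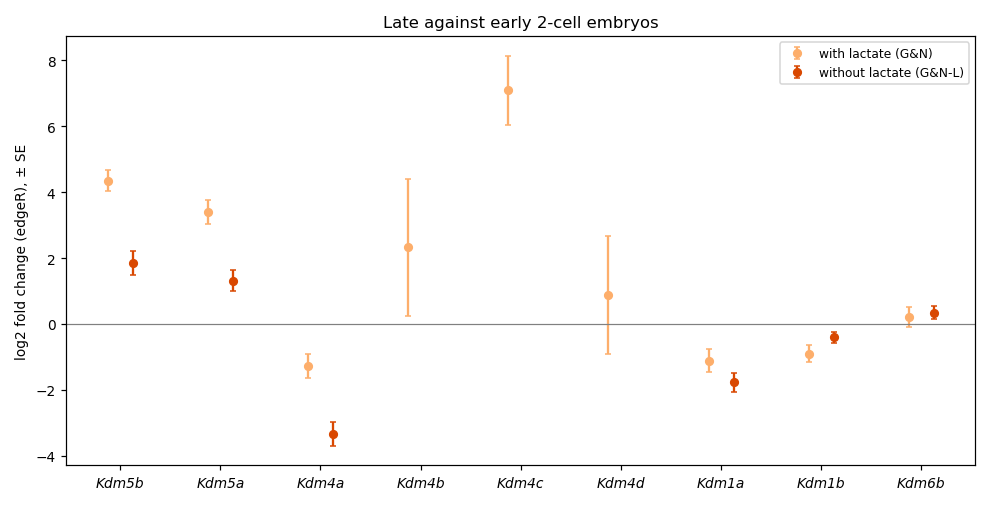
Log2 fold change (edgeR, points, with the SE as error bars) between late and early 2-cell embryos with lactate (G&N) and without (G&N-L). Kdm4b without lactate was not tested, and Kdm4c and Kdm4d without lactate are left out because both early libraries were at 0. A reader should see Kdm5b at 4.34 with and 1.84 without lactate, Kdm5a at 3.39 and 1.31, and Kdm4a at -1.28 and -3.33.

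Whether the effect of lactate differed between stages was tested by an interaction term over 8 libraries, those of both stages from G&N and G&N-L media. The interaction was -2.54 for Kdm5b (SE 0.453, rank 13 of 22287 genes), -2.13 for Kdm5a (SE 0.465) and -2.10 for Kdm4a (SE 0.478) on the log2 scale. The adjusted p was 0.494 for Kdm5b and 0.536 for both others by edgeR's quasi-likelihood test. DESeq2 gave 0.000264, 0.00469 and 0.0104 in the same order, so the call depends on the tool, and DESeq2 called these 3 of the 9 genes and 1.26% of all genes. By edgeR 0 of the 9 genes and 0% of all genes were called, and these 3 had an unadjusted p under 0.05 and were lower, against 3.98% of all genes lower at that level. Kdm4c and Kdm4d, higher at that level, were at 0 in both early G&N-L libraries and are not set against other genes.

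Other genes of histone lysine methylation were taken from lists of 16 further Jumonji C genes, 12 genes for partners of Kdm1a and Kdm1b and 19 methyltransferase genes. In late G&N-L against G&N, edgeR called 0 of the 46 genes tested and DESeq2 called 5, against 4.99% of all genes. At an unadjusted p under 0.05, 5 of 15, 3 of 12 and 1 of 19 genes were lower, against 7.65% of all genes, and 2, 0 and 0 were higher, against 4.32%. Of the 3 lower partners, 1 passed the filter through the G&N libraries alone. The medians were -0.61, -0.57 and -0.20 in the same order, against -0.02 for all genes. Between stages with lactate, edgeR called 13.7% of all genes. Uty and Riox1 were at 0 in both early G&N libraries and passed the filter through the late ones alone, and without the list genes that passed in this way, 2 of 13, 3 of 12 and 3 of 17 were called. The called Jumonji C genes were all higher: Kdm3a, an H3K9 demethylase, from 2.47 and 6.03 CPM to 65.4 and 78.1 CPM, Kdm2a, an H3K36 demethylase, and Uty and Riox1. Among the partners Hdac1, a histone deacetylase, was higher (log2 fold change 3.74) and Gse1 (-2.56) was lower. Among the methyltransferases Setd2, which writes H3K36 trimethylation, was higher (2.59), as was Prdm9 (4.37), and Suv39h2, an H3K9 methyltransferase, was lower (-1.16). Between stages without lactate 2 of 12, 2 of 11 and 3 of 18 genes were called, counted in the same way, against 11.8% of all genes, and Uty was called but was at 0 in both early libraries. Kdm3a, Uty, Setd2 and Kmt2c were higher there, and Kdm2b, Gse1 and Ehmt1 were lower.

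Over the 7 condition means, the genes whose level moved most like Kdm5b were Sbno1 (Pearson r = 0.998 of log2(CPM + 1)), Zscan5b (0.9975), Med29 (0.997), Rpl9 (0.997) and Rpl12 (0.996), among 9808 genes with a mean of at least 5 CPM. Among the members, Kdm5a correlated with Kdm5b at 0.985, Kdm4c at 0.962 and Kdm1b at -0.906, and Kdm4a at -0.254. These 7 points share libraries and the same stage contrast, so the correlations are a description with no test.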

How the data were processed

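Counts of 14 RNA-seq libraries of mouse 2-cell embryos were analysed. The submitters' processing notes name FastQC, Trim Galore, HISAT2, featureCounts, DESeq2 and the build mm39. The deposited values are the authors' raw read counts per gene, not normalized. Versions, strand setting and the treatment of multimapping reads are not given in the sources used here. The methods state 3 replicates per group and the count table holds 2. Groups followed the sample titles, and the mutant columns named K18A were taken as the H3K18R samples. Replicates differed by more than counting noise.

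The analysis used edgeR 4.0.16 under R 4.3.3 (TMM, the default filter on low counts, quasi-likelihood test, Benjamini-Hochberg adjustment over all genes tested, threshold 0.05, prior count 0.125), each comparison on its own 4 libraries and the interaction on 8. The pairwise test was checked on simulated data for the sign and size of fold changes and the rate of small p in unchanged genes. The check set no condition on how many changed genes were called, and did not cover the interaction. Levels are CPM on TMM library sizes. Alternatives were DESeq2 1.42.0, other scalings and filters, all 14 libraries in one fit, a replicate block and each library left out in turn. All 9 members were named, list genes only where called, up to 6 per list, except for 1 called gene that is not reported here, and the 5 genes most like Kdm5b. Gene models were GENCODE vM39. The members and lists were chosen with earlier results of these data known.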

Additional observations from a re-analysis of the deposited data

Results flagged for a closer look

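Members are flagged here whose G&N-L and G&N libraries did not overlap at either stage and differed in opposite directions early and late. Of all genes tested, 32.7% did not overlap early and 43.5% did not overlap late. The share of all genes with the flagged pattern was not computed, so the flags are a description. Kdm5b was higher in both early G&N-L libraries and lower in both late ones, with an interaction of -2.54 on the log2 scale. Kdm5a had the same directions and an interaction of -2.13. Kdm4d had the reverse directions, and passed the early filter through the G&N libraries alone. Its interaction was 9.9, a fitted value against early G&N-L libraries at 0 that depends on the prior count. None of the 3 had an adjusted p under 0.05 by edgeR.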

How the results depend on the processing

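DESeq2 and the filter moved the counts of called genes most. In late G&N-L against G&N, the members called went from 0 to 2 with DESeq2, 2 without a filter and 1 with at least 10 counts, and all genes called from 0 to 916, 317, 114 and, with all 14 libraries, 11. Early, all genes went from 0 to 37, 42 without a filter and 4 with all libraries. For H3K18R against WT they went from 1 to 118, 78 and 9, and to 0 to 1 with a library left out. For Lac-CoA against G&N-L, members went from 0 to 2 with DESeq2, and all genes from 0 to 1183, 3 without a filter and 2 with at least 10 counts, and against G&N from 0 to 471, 22 and 20. From early to late with lactate, members went from 3 to 6 with DESeq2 and 5 without a filter, and all genes from 2654 to 5959 and 5060. Leaving out a library gave 1 to 3 members and 220 to 2446 genes. Without lactate, all genes went from 2203 to 5218 with DESeq2, and leaving out a library gave 0 to 5 members and 335 to 1393 genes. In the interaction, members went from 0 to 3 with DESeq2. A left-out library leaves an arm with 1 library, assumed to vary like the rest.

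With the replicate number as a block, 1391 genes were called between stages without lactate, Kdm4d was no longer called there (adjusted p = 0.0788 by edgeR), Kdm1a turned to -0.088 in H3K18R against WT and Kdm4d to -0.75 between stages with lactate. Across genes, the difference between the replicates of a group correlated with that of the compared group at -0.091 to 0.005. The replicate numbers thus gave no sign of pairing the libraries. The block changed no other member's call.

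Leaving out a library turned the sign of these values, given as log2 ranges. Early G&N-L against G&N gave -0.36 to 0.24 for Kdm1a. H3K18R against WT gave -0.71 to 0.52 for Kdm1a, -0.75 to 0.051 for Kdm4a, -1.06 to 0.040 for Kdm4c and -7.43 to 3.25 for Kdm4d. Lac-CoA against G&N gave -0.22 to 0.10 for Kdm1b, -0.70 to 0.26 for Kdm4a, -0.11 to 0.63 for Kdm4c and -5.55 to 4.12 for Kdm4d. Between stages with lactate Kdm4d gave -3.63 to 1.83 and Kdm6b -0.11 to 0.44, and in the interaction Kdm4b gave -0.80 to 6.62 and Kdm6b -0.16 to 0.39. The cause was not tested. Of 63 mean levels, 21 moved by over 1 SD with library totals, by a ratio of 0.829 to 1.13.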

Other observations

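Rcor3, a CoREST gene from the list of Kdm1a partners, chosen here after its values were seen, had 0 counts in both late G&N-L libraries. It had 84 and 151 counts in late G&N, 191 and 90 with Lac-CoA, 0 and 37 in WT and 101 and 0 in H3K18R. Its mean level was 0.491 CPM in early G&N and 0.343 CPM in early G&N-L. Rcor3 passed the filter of late G&N-L against G&N through the G&N libraries alone, so it is not set against other genes.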
